A study of Mus musculus with 90 samples.

Results

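The genes described are 10 antioxidant genes, taken by symbol from the 38561 gene IDs counted in mouse striatum and cortex: the glutathione peroxidases Gpx1, Gpx3, Gpx4 and Gpx6, the transcription factor gene Nfe2l2 (encoding NRF2), its inhibitor Keap1, and the NRF2 target genes Nqo1, Hmox1, Gclc and Gclm. All 10 symbols matched 1 ID each. RNA was sequenced from the right hemisphere of 45 C57BL6/J mice aged 9 months, with 1 striatum and 1 cortex library per mouse and 90 libraries in all. The mice were wild type (WT) or carried Q175 on both alleles, that is, an Htt gene with a lengthened CAG tract, used to model Huntington's disease. They had received vehicle or PF-02545920, which inhibits the enzyme PDE10A, by mouth once daily, starting at 5 weeks of age and lasting until 9 months. Each tissue had 9 WT vehicle mice, 7 Q175 vehicle mice, and Q175 mice at 0.32 mg/kg (10 mice), 1.0 mg/kg (10 mice) and 3.2 mg/kg (9 mice), with 5 females in every arm. No WT mouse received the compound, and the 3 doses share the same 7 vehicle mice. Mice are named by sex and number within an arm (F2 is female 2). All 10 genes passed the expression filter in the striatum and 9 in the cortex, where Gpx6 fell below it.

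Glutathione peroxidases reduce hydrogen peroxide or lipid hydroperoxides with glutathione as the electron donor. Gpx1 is the cytosolic and mitochondrial enzyme, Gpx3 is secreted, and Gpx4 reduces phospholipid hydroperoxides in membranes and protects against ferroptosis. Gpx6 is best known from the olfactory epithelium, and its product is a selenoprotein in human but not in mouse. Under oxidative stress KEAP1, an adaptor of a ubiquitin ligase, no longer marks NRF2 for degradation, and NRF2 then activates genes through antioxidant response elements. This control acts largely on protein stability, which RNA levels do not measure.

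The codon at the catalytic site sets Gpx6 apart from its 3 paralogs, so that stretch is shown for each, with the catalytic codon in capitals (from the GENCODE M21 transcripts of these genes, 5′ to 3′, coding strand). Gpx5, the neighbour of Gpx6 on the chromosome, is added for comparison.
Gpx1: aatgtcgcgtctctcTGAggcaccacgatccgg
Gpx3: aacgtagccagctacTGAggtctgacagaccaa
Gpx4: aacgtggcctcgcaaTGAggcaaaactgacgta
Gpx6: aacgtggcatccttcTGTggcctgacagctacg
Gpx5: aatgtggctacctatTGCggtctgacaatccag
Gpx1, Gpx3 and Gpx4 carry an in-frame TGA, read as selenocysteine, at codons 47, 73 and 129 of their reading frames. The longest annotated frame of each gene was taken (253 codons for Gpx4), and the codon numbers hold for that frame only. Which Gpx4 transcript the tissues express was not tested. Gpx6 carries TGT, a cysteine codon, at codon 73, and Gpx5 carries TGC at its codon 73. The reading frame of Gpx6, translated and aligned, was 66.5% identical to that of Gpx3, 50.3% to Gpx1 and 38.4% to Gpx4. Gpx6 lies at chr13:21312125-21319624 on the plus strand of GRCm38 and Gpx5 at chr13:21286429-21292731 on the minus strand. Gpx1 lies at chr9:108338903-108340343, Gpx3 at chr11:54902453-54910377 and Gpx4 at chr10:80047166-80056439, all on the plus strand. These positions come from an annotation that may differ from the build the authors used.

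Promoter windows of 250 bases before to 50 bases after the start were at hand from RefSeq (GRCm38.p6) for 8 of the 10 genes and were searched on both strands for the core of the antioxidant response element, TGACNNNGC. The table had no window for Hmox1 and Gclc. Nfe2l2 and Gclm each had 1 match, shown in capitals with 10 bases on either side on the strand of the gene.
Nfe2l2, chr2:75704614-75704913, minus strand: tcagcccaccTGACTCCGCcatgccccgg
Gclm, chr3:122245307-122245606, plus strand: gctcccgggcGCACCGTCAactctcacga
The match began 240 bases before the start of Nfe2l2, and 134 bases before the start of Gclm, where it reads on the reverse strand. Neither held the AP-1 motif TGACTCA. Of all 32841 windows 12.4% held the core, and of the 11 windows of these 8 genes (4 of them of Gpx4) 2 did, which is a description of these letters. The other members lie at chr9:21229730-21239361 (Keap1, minus strand), chr8:107388225-107403206 (Nqo1, minus strand), chr8:75093621-75100589 (Hmox1, plus strand) and chr9:77754535-77794485 (Gclc, plus strand).

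Total counts per library ran from 30510374 to 44943841 in the striatum and from 37233807 to 45781479 in the cortex. Levels below are CPM (counts per library total, scaled within a tissue by TMM) with the SD over mice, and levels of different genes are set against each other only as the authors' FPKM, which divides by length. Log2 changes carry their SE, and a gene was called where edgeR's quasi-likelihood test, adjusted by Benjamini-Hochberg over all genes of the tissue, gave p under 0.05. Most striatal neurons are medium spiny neurons, and the summed CPM of 12 of their marker genes was 9350 to 13281 in WT vehicle striatum and 914 to 1184.4 in WT vehicle cortex. Of the libraries, those of striatum 3.2 mg/kg M4 and striatum 1.0 mg/kg M1 and of cortex 3.2 mg/kg M4 and cortex 1.0 mg/kg F1 and F4 correlated least with the median of their own group (0.990 to 0.992). Both tissues of the Q175 vehicle mouse F4 held the most blood RNA (summed CPM of 5 genes, hemoglobins and Alas2, of 1206 and 1444, against 237 or less in all other libraries).

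In WT vehicle mice Gpx6 was high in the striatum and at a few counts per library in the cortex, and 6 of the other 9 members were called, against 72.2% of 16769 genes (37.1% higher in the striatum and 35% lower). Its level in the striatum ran from 4.09 to 11.6 CPM with a median of 8.02 (135 to 391 counts per library), and in the cortex from 0.0493 to 0.125 CPM with a median of 0.0765 (2 to 5 counts). The 9 mice did not overlap between the tissues. The fitted log2 difference was 6.61 in edgeR and 5.11 on log2(FPKM + 0.1). Gpx6 passed the filter of this fit through the striatum alone and its cortex level rests on 2 to 5 counts, so these values are a description, with no test.

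The paralogs of Gpx6 had other tissue patterns. Gpx1 was higher in the striatum (0.63 ± 0.0441, adjusted p = 1.06e-08, edgeR), in 9 of 9 mice. Gpx3 was lower there (−0.98 ± 0.104, adjusted p = 1e-06, edgeR), in 9 of 9 mice. Gpx4 was not called (−0.04 ± 0.0466, adjusted p = 0.487, edgeR), with the striatum above the cortex in 3 of 9 mice. Of the NRF2 genes, Nfe2l2 (0.36 ± 0.0393), Nqo1 (0.86 ± 0.0713, an NAD(P)H quinone reductase), Gclc (0.49 ± 0.0358) and Gclm (0.20 ± 0.0368), the catalytic and modifier subunits of the enzyme that starts glutathione synthesis, were higher in the striatum in 9 of 9 mice each. Keap1 (−0.05 ± 0.0354) and Hmox1 (0.11 ± 0.0619), the heme oxygenase, were not called.

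Per length, Gpx4 was the most abundant member in all groups described here. In WT vehicle striatum it stood at 221 ± 21.2 FPKM (n = 9), above Gpx1 at 61.2 ± 4.75, Gclc at 22.4 ± 1.42, Keap1 at 17.0 ± 1.14, Gclm at 15.7 ± 1.20, Nfe2l2 at 8.50 ± 0.862, Gpx6 at 6.03 ± 2.1, Nqo1 at 3.89 ± 0.439, Hmox1 at 2.79 ± 0.387 and Gpx3 at 2.07 ± 0.444. The ranges of Keap1 and Gclm overlapped, and each of the last 4 genes in this order overlapped with the one before it. Gpx6 held place 7 of 10 in FPKM there. In WT vehicle cortex the order began with Gpx4 (228 ± 8.16), Gpx1 (41.1 ± 2.14), Keap1 (18.4 ± 0.590) and Gclc (16.5 ± 0.556) and ended with Gpx6 (0.0689 ± 0.021), which no other member overlapped.

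In the Q175 striatum Gpx6 dropped to the last place of the members, and none of the 3 other peroxidases was called lower. Gpx6 was at 4.09 to 11.6 CPM in the 9 WT vehicle mice (median 8.02) and at 0.0952 to 0.408 CPM in the 7 Q175 vehicle mice (median 0.263, 3 to 16 counts per library). The groups were far apart and did not overlap. The log2 change was −5.05 ± 0.238 (95% confidence interval −5.53 to −4.57), 33.2-fold lower, with an adjusted p of 4.82e-22 in edgeR's test. Q175 vehicle mice held 3.03% of the mean WT level.

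Of the 10 members 2 were called higher (Gclm and Hmox1) and 1 lower (Gpx6) in Q175 vehicle striatum, against a background of 45.1% of 17315 genes called (21.9% higher and 23.2% lower). By limma on log2(FPKM + 0.1) the genes called were 7223 higher and 2372 lower, in place of 3794 and 4023. The median change over the 10 members was −0.0047 and that over all genes 0.00 on the log2 scale. The change in Gpx6 stands beside changes in marker genes of several cell types. Of 10 astrocyte markers 7 were called lower and 2 higher. Of 8 oligodendrocyte markers 4 were called lower and none higher, and of 8 endothelial markers 3 lower and none higher. Of 8 cortical excitatory neuron markers 1 was called higher and 1 lower, and of 10 microglia markers 4 were called higher and none lower. Of 12 medium spiny neuron markers 11 fell, with log2 changes of −2.20 to −0.16 over the 12 and a median of −1.21, and the median of their summed CPM was 12357 in WT and 4570 in Q175 vehicle mice, 2.7-fold lower. The part of any of these cell types in the fall of Gpx6 was not tested. In tissue samples fewer cells of a type and less RNA per cell cannot be told apart. Of 6 genes of the olfactory epithelium, where Gpx6 is known, 4 passed the filter and 2 of them fell. Their summed CPM was 18.7 to 38.5 in WT and 12.2 to 24.3 in Q175 vehicle striatum, carried by Ano2, a chloride channel (medians 30.7 and 15.8 CPM), while the defining marker Omp had medians of 0.221 and 0.131 CPM and Obp2a was at 0 in every striatum library.

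Gpx1 was at 58.0 to 75.2 CPM in WT vehicle striatum (median 68.6) and at 69.1 to 78.4 CPM in Q175 vehicle striatum (median 75.4). The groups overlapped, with 4 of 7 Q175 mice above all WT mice, and the change of 0.13 ± 0.0547 (interval 0.02 to 0.24) missed the threshold (adjusted p = 0.0519, edgeR). Gpx3 was at 2.71 to 4.87 CPM in WT (median 3.25) and 2.20 to 4.23 CPM in Q175 vehicle (median 3.27), a change of −0.11 with an interval of −0.46 to 0.25. Gpx4 was at 187 to 262 CPM in WT (median 210) and 196 to 223 CPM in Q175 vehicle (median 213), a change of −0.04 with an interval of −0.13 to 0.05. The intervals of these 3 genes lie far from that of Gpx6. The Gpx1 call depends on the processing. It was past the threshold with an adjustment of every library for GC content and transcript length, added after the data were seen (0.21, adjusted p = 3.53e-05, with the median of all genes at 0.02), and with the deposited FPKM values (0.25, adjusted p = 0.00013, with that median at 0.11). It was also past it with DESeq2 (0.13, adjusted p = 0.0416), without the sex term (0.13, adjusted p = 0.0448), in a fit of the 2 groups alone (0.14, adjusted p = 0.0269), and without any 1 of Q175 vehicle F2 and F3 and WT vehicle F1 and M3 (0.14 to 0.16). It stayed short of it with a term for the L number given in the library descriptions, whose meaning is not given, without a count filter and in either sex alone.

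The contrast of Gpx6 with each paralog was also taken within each library, as the log2 ratio of CPM + 0.1. The ratio to Gpx3, the closest of the 3 in sequence, was 0.33 to 2.01 in WT vehicle striatum and −4.11 to −2.63 in Q175 vehicle striatum. It did not overlap, and it was lower by 4.43 on the log2 scale in Q175 (−4.43, two-sided exact permutation test, p = 8.74e-05, the smallest that 7 against 9 mice allow, adjusted p = 0.000175 over 6 tests). The ratios to Gpx1 (−4.67) and Gpx4 (−4.51) had the same p and did not overlap either. In the cortex the ratio differed by −0.44 to Gpx1 (exact permutation p = 0.0677, adjusted p = 0.096), by −0.42 to Gpx4 (exact permutation p = 0.08, adjusted p = 0.096) and by −0.12 to Gpx3 (exact permutation p = 0.662). Cortex counts of Gpx6 were few: 28 in all over the 9 WT vehicle libraries and 18 over the 7 Q175 vehicle libraries, of which 12 came from the mouse F2 and 2 libraries had none. Without F2, the highest mouse of its group, the ratio differed by −0.66 to Gpx1, −0.64 to Gpx4 and −0.35 to Gpx3. The cortex ratios cannot decide whether Gpx6 itself changed there. Gpx6 lay below the cortex filter, and the added 0.1 is larger than its median level in either genotype (WT 0.0765 CPM, Q175 0.0238 CPM). Gpx1 and Gpx4 were also called higher in Q175 cortex (0.15 and 0.12), which by itself lowers a ratio to them. The summed medium spiny neuron markers of the F2 cortex library, at 590 CPM, lay within the 585 to 750 CPM of its group.

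**Figure D1:**
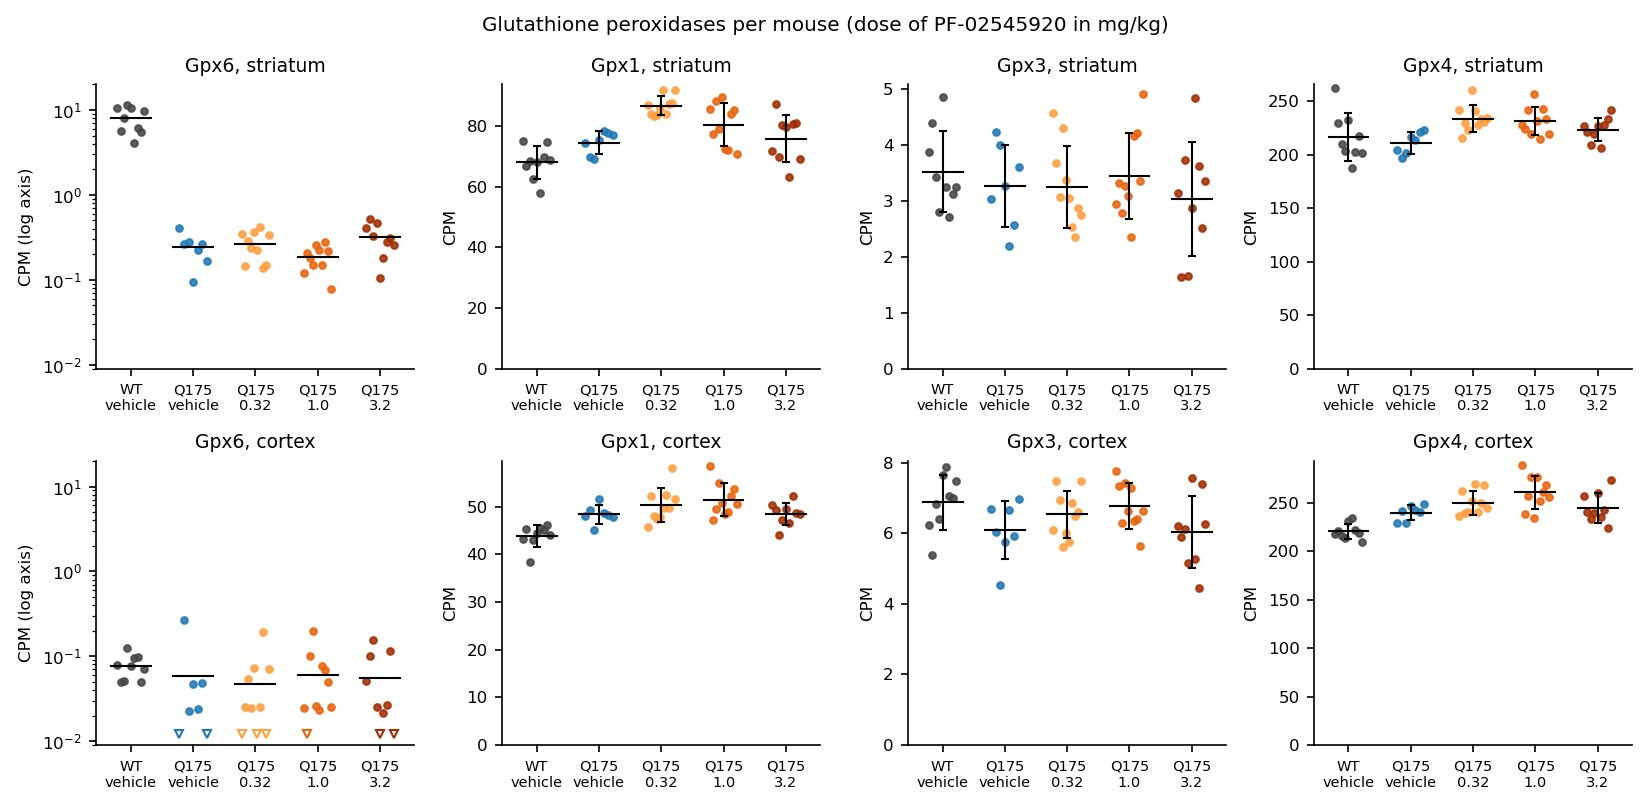
CPM of Gpx6 (log axis), Gpx1, Gpx3 and Gpx4 (linear axes from 0) in each mouse of the 5 arms, striatum above and cortex below; points are libraries, lines are means, error bars are SD (not drawn for Gpx6), and open triangles are libraries with no Gpx6 count. Gpx6 stands at a mean of 7.99 CPM in WT vehicle striatum and at 0.185 to 0.316 CPM in the 4 Q175 arms, while the other 3 genes keep overlapping ranges between WT vehicle and Q175 vehicle mice.

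Other members of the peroxidase family were not called lower in the striatum. Gpx7 and Gpx8, which lack selenocysteine and sit in the endoplasmic reticulum, differed by −0.03 ± 0.0792 and 0.16 ± 0.139 in Q175 vehicle striatum and were not called. Gpx5 had at most 1 count in any library and Gpx2 at most 6, so neither passed the filter in either tissue. In the cortex Gpx8 was called higher (0.28 ± 0.102, adjusted p = 0.0334, edgeR) and Gpx7 was not (−0.02 ± 0.0793).

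No change of Gpx6 was called at any dose of the inhibitor. Striatal Gpx6 was at 0.137 to 0.417 CPM at 0.32 mg/kg (median 0.261), 0.0773 to 0.280 CPM at 1.0 mg/kg (median 0.192) and 0.104 to 0.516 CPM at 3.2 mg/kg (median 0.311). All dosed mice lay below the lowest WT vehicle mouse, and each dosed group overlapped with Q175 vehicle mice. The changes against Q175 vehicle were 0.19 ± 0.307, −0.32 ± 0.326 and 0.43 ± 0.306, with adjusted p of 0.781, 0.652 and 0.839 in edgeR's test. Their intervals were −0.43 to 0.80, −0.98 to 0.34 and −0.19 to 1.04, and changes within them were not detectable at 3 to 22 counts per library. The dosed arms had means of 2.32% to 3.95% of the WT mean.

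The 5 genes whose mean log2 CPM over the 10 groups of tissue and arm was most like that of Gpx6, among 17021 genes, were Ccm2 (Pearson r = 0.994), Neto2 (0.992), Ror1 (0.991), Hras (0.990) and Grik2 (0.990). Their level was highest in WT vehicle striatum, as for Gpx6. Ror1, with the largest fall of the 5, stood at a mean log2 CPM of 2.90 there, at 0.72 to 0.88 in the 4 Q175 striatum groups and at −0.14 to 0.20 in the cortex groups. Ccm2, the closest by r, stood at 6.63 in WT vehicle striatum and at 5.74 to 5.82 in the 4 Q175 striatum groups. Gpx6 went from 2.92 to between −2.14 and −1.54, so the likeness is one of pattern and not of size. These correlations are over 10 group means that share their mice and normalization, and they are a description.

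In the cortex of Q175 vehicle mice 4 of the 9 members tested were called higher and none lower, against 30.4% of 17603 genes called (14% higher and 16.4% lower). Over all genes 2463 were called higher and 2893 lower, which became 4109 and 2021 by limma on log2(FPKM + 0.1) and 3586 and 2793 with the adjustment for GC content and length. The members called were Gpx1, Gpx4, Keap1 and Nqo1, with small changes of 0.09 to 0.23 on the log2 scale. The median over the 9 was 0.06 and that of all genes 0.00.

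Gpx1 in the cortex was at 38.4 to 46.2 CPM in WT vehicle (median 44.5) and 45.1 to 51.6 CPM in Q175 vehicle mice (median 48.3). Only the lowest Q175 mouse fell within the WT range, as 6 of 7 lay above all WT mice. The change was 0.15 ± 0.0412 (adjusted p = 0.00526, edgeR). Gpx4 was at 209 to 234 CPM in WT (median 218) and 229 to 248 CPM in Q175 vehicle (median 242), a change of 0.12 ± 0.0376 (adjusted p = 0.00942, edgeR). For Gpx4 5 of 7 Q175 mice lay above all WT mice. Keap1 was at 65.0 to 70.5 CPM in WT (median 67.9) and 69.5 to 74.0 CPM in Q175 vehicle (median 71.5), a change of 0.09 ± 0.0278 (adjusted p = 0.0154, edgeR), again with 5 of 7 above all WT mice. Nqo1 was at 3.06 to 4.13 CPM in WT (median 3.42) and 3.21 to 5.34 CPM in Q175 vehicle (median 4.11), a change of 0.23 ± 0.0892 with wider overlap (adjusted p = 0.0467, edgeR), and the call was lost without any 1 of Q175 vehicle F1, F2, F4, F5 and M2 and WT vehicle F1, F3, F4, M2, M3 and M4 (0.16 with an adjusted p of 0.188 without Q175 vehicle M2, and 0.21 to 0.23 without the others). Hmox1 (−0.13 ± 0.0928), Nfe2l2 (−0.09 ± 0.0591), Gpx3 (−0.18 ± 0.0902), Gclc (0.06 ± 0.0277) and Gclm (0.06 ± 0.0349) were not called. Marker genes of neurons and astrocytes fell beside these changes in the cortex: 11 of 12 medium spiny neuron markers (summed CPM 585 to 750 in Q175 vehicle against 914 to 1184.4 in WT mice), 6 of 8 cortical excitatory neuron markers (2208 to 2413 against 2497 to 2834) and 6 of 10 astrocyte markers, of which 1 rose. Of all genes 14% were called higher and 16.4% lower there. Of 10 microglia markers 3 rose and none fell (503 to 564 against 453 to 512), and of 8 oligodendrocyte markers 2 rose and 4 fell. The part of these cells was not tested. With the L number term Keap1 (0.06, adjusted p = 0.245) and Nqo1 (0.18, adjusted p = 0.222) lost their calls and Hmox1 was called lower (−0.26, adjusted p = 0.0376).

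Gclm and Hmox1 were the 2 members called higher in Q175 vehicle striatum. Gclm was at 49.9 to 64.7 CPM in WT vehicle (median 51.8) and 56.6 to 64.6 CPM in Q175 vehicle mice (median 59.8). The WT mouse M1 stood above all Q175 mice, and the change was 0.18 ± 0.0496 (adjusted p = 0.00278, edgeR). Hmox1 was at 3.85 to 5.67 CPM in WT (median 4.63) and 4.54 to 6.83 CPM in Q175 vehicle (median 5.07), a change of 0.28 ± 0.113 (adjusted p = 0.0401, edgeR). The Hmox1 groups overlapped, with 3 of 7 Q175 mice above all WT mice. The L number term ended both calls (Gclm 0.14, adjusted p = 0.0668, and Hmox1 0.21, adjusted p = 0.213), and Hmox1 was also lost without Q175 vehicle F1 (0.22, adjusted p = 0.127), F5 or M2, or without WT vehicle F2, F4, M2 or M3 (0.23 to 0.26). Of 10 microglia markers, among them C1qa, 4 were called higher in Q175 vehicle striatum and none lower, with a median log2 change of 0.08. Of all genes 21.9% were called higher there and 23.2% lower. The summed CPM of these markers was 539 to 701 in WT and 648 to 753 in Q175 vehicle mice. Their part in the change of Hmox1 was not tested. Nfe2l2 (0.01 ± 0.0643), Keap1 (−0.02 ± 0.0376), Nqo1 (0.09 ± 0.103) and Gclc (−0.02 ± 0.0394) were not called.

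**Figure D2:**
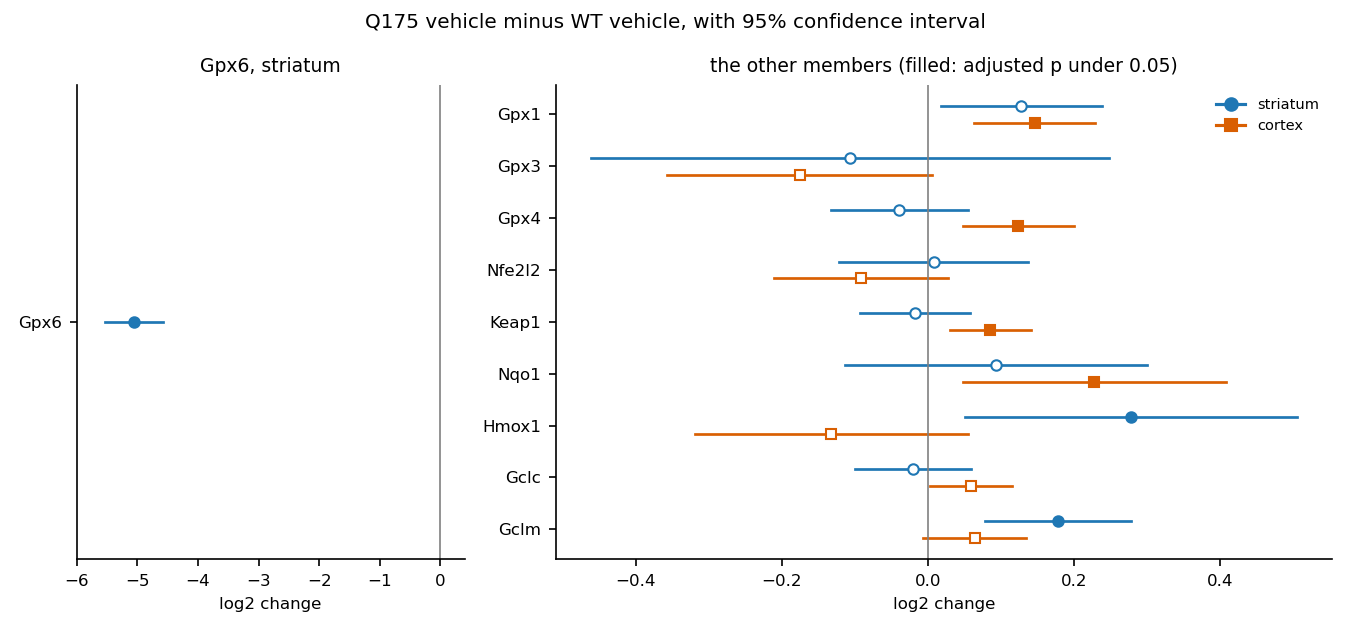
Log2 change in Q175 vehicle against WT vehicle mice with its 95% confidence interval, for Gpx6 in the striatum (left) and the other 9 members in striatum (circles) and cortex (squares) (right); filled symbols have an adjusted p under 0.05. Gpx6 lies at −5.05, while the other 9 members lie between −0.18 and 0.28 in both tissues.

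The genotype change differed between the tissues for 1 of the 9 members that passed the filter in both, Hmox1, by the test of the interaction itself (limma voom with the mouse as random block over the 32 vehicle libraries), against 22.4% of 17455 genes called (10.7% with a higher change in the striatum and 11.7% with a lower one). Gpx6 fell below the cortex filter, so the tissues were not compared by a test. It had 28 counts in all in WT vehicle cortex and 18 in Q175 vehicle cortex, 12 of them from the mouse F2. Its Q175 vehicle mean was 75.5% of the WT mean in the cortex and 3.03% in the striatum. Counts this few do not settle the size of a cortical change. Hmox1 had a higher change in the striatum (0.40 ± 0.117, adjusted p = 0.0122), where it rose, while the cortex value was −0.13. An edgeR fit of all 90 libraries without the block gave an Hmox1 difference of 0.39 (adjusted p = 0.0589). That fit changed the test, the libraries and the genes kept as well as the block. For Gpx1 the difference was −0.0041 with an interval of −0.12 to 0.11, and for Gpx4 it was −0.15 ± 0.0608 (adjusted p = 0.0742, limma), so the Gpx4 change was not shown to differ between the tissues. Within Q175 vehicle mice, where 73.5% of 16841 genes were called (37.4% higher and 36.1% lower in the striatum), Hmox1 was higher in the striatum by 0.50 ± 0.0763 (edgeR, adjusted p = 5.99e-05, 7 of 7 mice).

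**Figure D3:**
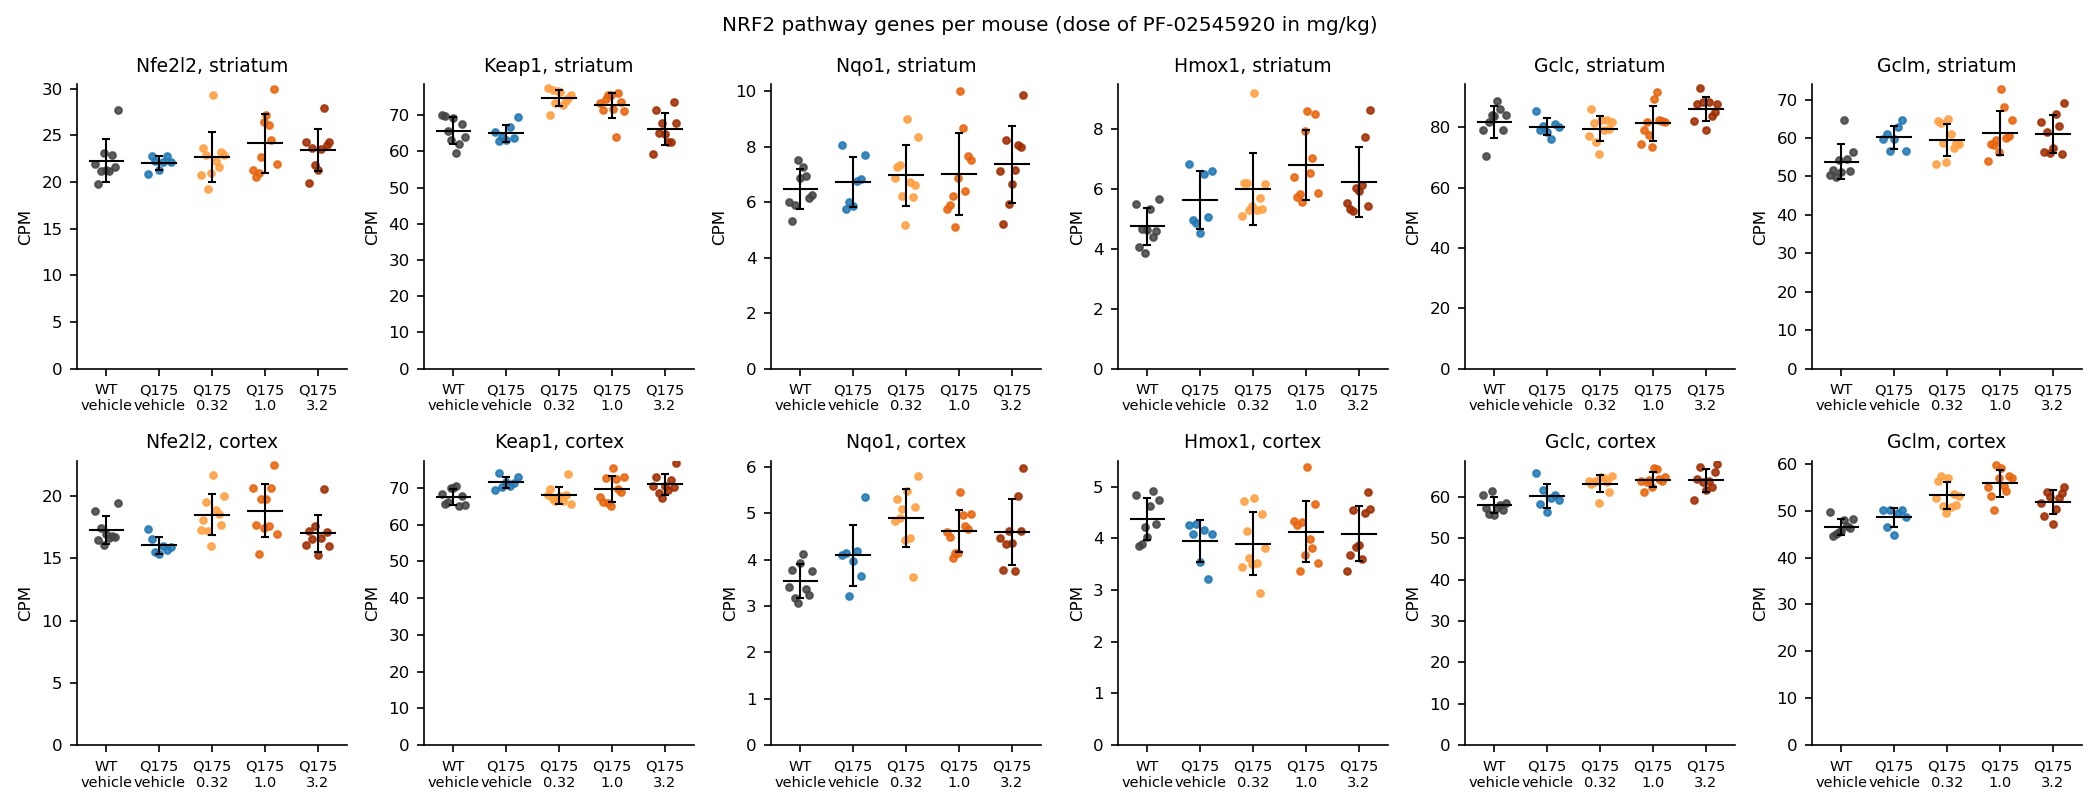
CPM of Nfe2l2, Keap1, Nqo1, Hmox1, Gclc and Gclm in each mouse of the 5 arms, striatum above and cortex below, on linear axes from 0; points are libraries, lines means and error bars SD. Striatal Keap1 stands at a mean of 74.8 CPM at 0.32 mg/kg against 65.1 CPM in Q175 vehicle mice, and cortical Gclm at 55.8 CPM at 1.0 mg/kg against 48.6 CPM.

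In the striatum of dosed mice Gpx1 and Keap1 rose at the lowest dose and no member was called at the highest. At 0.32 mg/kg 2 of 10 members were called higher, against 2.49% of 17315 genes called in either direction (2.17% higher and 0.323% lower). Gpx1 was at 83.5 to 92.1 CPM (median 86.6) against 69.1 to 78.4 CPM in Q175 vehicle mice (median 75.4). Keap1 was at 70.0 to 77.6 CPM (median 75.1) against 63.0 to 69.4 CPM (median 64.0). For both genes all 10 dosed mice lay above all 7 vehicle mice. The changes were 0.22 ± 0.0537 for Gpx1 (adjusted p = 0.0272, edgeR) and 0.21 ± 0.0369 for Keap1 (adjusted p = 0.00753, edgeR). Gpx4 missed the threshold (0.15 ± 0.0459, adjusted p = 0.0598, edgeR) and was called by DESeq2 (0.15, adjusted p = 0.0272).

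At 1.0 mg/kg 1 of 10 members was called higher in the striatum, against 1.07% of all genes in either direction (0.797% higher and 0.277% lower). Keap1 was at 64.0 to 76.0 CPM (median 73.6), with 9 of 10 dosed mice above all vehicle mice, and it rose by 0.17 ± 0.0368 (adjusted p = 0.0225, edgeR). At 3.2 mg/kg no member was called, against 1.48% of all genes in either direction (1.33% higher and 0.15% lower), and Keap1 was at 59.4 to 73.6 CPM (median 65.2), a change of 0.03 with an interval of −0.05 to 0.10. The Gpx1 differences at 1.0 and 3.2 mg/kg were 0.11 ± 0.0536 and 0.03 ± 0.0546, both short of the threshold. The adjustment for GC content and transcript length took away the calls at both doses, leaving 0.12 (adjusted p = 0.358) for Gpx1 and 0.09 (adjusted p = 0.224) for Keap1 at 0.32 mg/kg and 0.07 (adjusted p = 0.275) for Keap1 at 1.0 mg/kg. Over all genes it left 1 higher and 13 lower at 0.32 mg/kg, in place of 375 and 56. At 1.0 mg/kg it left 1 higher and 1 lower, in place of 138 and 48. Blood genes were also called lower in the striatum, 2 of 5 at 0.32 and at 1.0 mg/kg and 3 of 5 at 3.2 mg/kg. Neither Gpx1 nor Keap1 was called at 3.2 mg/kg. The vehicle mouse F4 held 1206 CPM of these blood genes, and their part was not tested. Without F4 the Gpx1 and Keap1 calls at 0.32 mg/kg stood, and that of Keap1 at 1.0 mg/kg did not (0.16, adjusted p = 0.0573). Keap1 at 1.0 mg/kg also missed the threshold without dosed F5 or vehicle F2, F3 or M1 (0.16), and Gpx1 at 0.32 mg/kg missed it without dosed M5 or vehicle F1, F2 or F3 (0.21 to 0.22).

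In the cortex of dosed mice it was Nfe2l2 and Gclm that rose at the lower doses. At 0.32 mg/kg 2 of 9 members were called higher and 1 lower, against 10.2% of 17603 genes called in either direction (5.18% higher and 4.98% lower). Nfe2l2 was at 15.96 to 21.7 CPM (median 18.3) against 15.3 to 17.4 CPM in Q175 vehicle mice (median 15.9), with 7 of 10 dosed mice above all vehicle mice. Gclm was at 49.5 to 57.5 CPM (median 52.9) against 44.9 to 50.2 CPM (median 49.5), with 9 of 10 above all vehicle mice. Both groups thus overlapped at their edges. The changes were 0.19 ± 0.0581 for Nfe2l2 (adjusted p = 0.0321, edgeR) and 0.13 ± 0.0342 for Gclm (adjusted p = 0.0145, edgeR). Keap1 was at 65.5 to 73.8 CPM (median 67.5) against 69.5 to 74.0 CPM (median 71.5), and was called lower by a narrow margin (−0.08 ± 0.0272, adjusted p = 0.0492, edgeR). The Keap1 call was lost without any 1 of 15 of the 17 mice (−0.09 to −0.07), and its value turned to 0.01 (adjusted p = 0.904) with the adjustment for GC content and length. That adjustment also ended the calls of Nfe2l2 (0.14, adjusted p = 0.301) and Gclm (0.07, adjusted p = 0.437) at this dose and gave one to Gpx4 (0.13, adjusted p = 0.00412). Gclm was short of the threshold with the deposited FPKM values too (0.06, adjusted p = 0.394). The Nfe2l2 call at this dose was lost without dosed F3, M1 or M5 or vehicle F3, F4, M1 or M2 (0.16 to 0.18).

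At 1.0 mg/kg 4 of 9 members were called higher in the cortex, against 20.7% of all genes in either direction (10.9% higher and 9.8% lower). Nfe2l2 was at 15.3 to 22.5 CPM (median 18.7), with 8 of 10 dosed mice above all vehicle mice, and rose by 0.22 ± 0.058 (adjusted p = 0.00697, edgeR). Gclm was at 50.04 to 59.8 CPM (median 56.1), with 9 of 10 above all vehicle mice, and rose by 0.19 ± 0.0342 (adjusted p = 0.000258, edgeR). Gclc, the partner subunit of Gclm, was called as well. It was at 61.3 to 67.1 CPM (median 64.1) against 56.4 to 65.7 CPM (median 59.8), a change of 0.09 ± 0.0272 (adjusted p = 0.0191, edgeR). Gpx4 was at 234 to 289 CPM (median 259) against 229 to 248 CPM (median 242), a change of 0.12 ± 0.037 (adjusted p = 0.0203, edgeR), with 8 of 10 dosed mice above all vehicle mice. With the adjustment for GC content and length Gclm and Gpx4 were still called, Nfe2l2 (0.17, adjusted p = 0.0744) and Gclc (0.07, adjusted p = 0.115) were not, and Gpx1 was (0.10, adjusted p = 0.0414). With the deposited FPKM values the Gclm change was 0.12 (adjusted p = 0.0359, limma).

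The libraries F1 and F4 at 1.0 mg/kg, the 2 of their group least like its median, bear on this comparison. Without both, an alternative added after the data were seen, Gclm was still called, while Gpx4 (0.08, adjusted p = 0.148), Nfe2l2 (0.17, adjusted p = 0.0533) and Gclc (0.08, adjusted p = 0.0515) were not, so that 1 of 4 calls was left. Without F1 or F4 alone Gpx4 was at 0.10 (adjusted p of 0.0561 and 0.0517). All 5 blood genes were called lower at both of these doses, with a summed CPM of 98.8 to 207 at 0.32 mg/kg, 117 to 166 at 1.0 mg/kg and 74.8 to 1444 in Q175 vehicle mice. Choroid plexus markers were also lower at 1.0 mg/kg, 2 of 8 being called (summed CPM 19.8 to 345 against 39.8 to 439.6). Their part in these changes was not tested. Without the vehicle mouse F4, which held the 1444 CPM, Nfe2l2 at 0.32 mg/kg was at 0.18 (adjusted p = 0.0692), Gclm there at 0.11 (adjusted p = 0.051) and Gclc at 1.0 mg/kg at 0.07 (adjusted p = 0.0792), and Gclc was also lost without vehicle F2 or M2 (0.08).

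At 3.2 mg/kg no member was called in the cortex, where 0 of 17603 genes were called in either direction by edgeR's test (561 higher and 746 lower at an unadjusted p under 0.05, and 0 higher and 2 lower by DESeq2). Gclm was at 47.2 to 55.2 CPM (median 52.7), with 7 of 9 dosed mice above all vehicle mice, a change of 0.09 ± 0.0348 (adjusted p = 0.631, edgeR). Nfe2l2 was at 15.3 to 20.6 CPM (median 16.6), a change of 0.07 ± 0.0591 (adjusted p = 0.832, edgeR). The intervals at 3.2 mg/kg (0.02 to 0.16 for Gclm and −0.05 to 0.19 for Nfe2l2) overlap with those at 1.0 mg/kg (0.13 to 0.26 and 0.10 to 0.33), and the difference between these doses was not tested. A slope over vehicle and the 3 doses in equal steps called no member in either tissue, against 1.77% of 17193 genes (1.57% higher and 0.198% lower) in the striatum and 0% of 17477 in either direction in the cortex (327 higher and 429 lower at an unadjusted p under 0.05). The largest slopes relative to their error were those of Gclc, 0.03 ± 0.012 per step in the striatum (adjusted p = 0.198, edgeR) and 0.03 ± 0.00896 in the cortex (adjusted p = 0.949, edgeR).

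**Figure D4:**
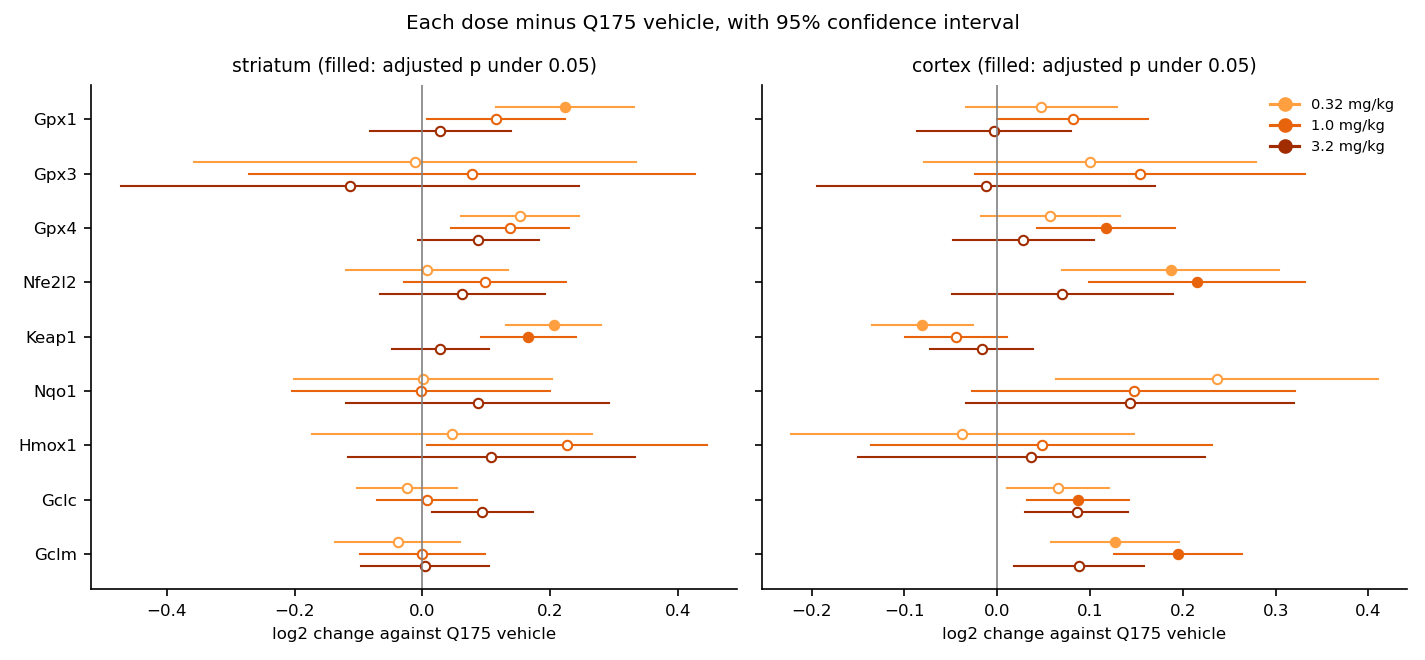
Log2 change of 9 members (all but Gpx6) at each dose against Q175 vehicle mice with its 95% confidence interval, striatum left and cortex right; filled symbols have an adjusted p under 0.05, and the 3 doses share the vehicle mice. In the striatum the filled points are Gpx1 at 0.32 mg/kg and Keap1 at 0.32 and 1.0 mg/kg, and in the cortex they are Nfe2l2 and Gclm at 0.32 and 1.0 mg/kg, Gpx4 and Gclc at 1.0 mg/kg and, below 0, Keap1 at 0.32 mg/kg.

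Male mice had more striatal RNA of Nfe2l2 and of 2 of its target genes than females. Over the 45 striatum libraries 3 of 10 members were called lower in females and none higher, against 10.5% of 17315 genes called in either direction (5.68% lower and 4.79% higher). Nfe2l2 was at 19.2 to 26.5 CPM in 25 females (median 21.3) and 21.2 to 29.9 CPM in 20 males (median 23.4). Nqo1 was at 5.09 to 8.25 CPM in females (median 6.21) and 6.14 to 9.99 CPM in males (median 7.39). Gclm was at 49.9 to 64.3 CPM in females (median 57.5) and 51.5 to 72.8 CPM in males (median 60.8). The sexes overlapped for each gene, and the female mean was below the male mean in 5 of 5 arms for all 3. With the arms as covariate, females minus males came to −0.15 ± 0.0382 for Nfe2l2 (adjusted p = 0.0125, edgeR), −0.24 ± 0.0609 for Nqo1 (adjusted p = 0.0115, edgeR) and −0.10 ± 0.0296 for Gclm (adjusted p = 0.024, edgeR).

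Hmox1 (−0.19 ± 0.0661, adjusted p = 0.0549, edgeR) and Gclc (−0.06 ± 0.0235, adjusted p = 0.0655, edgeR) also had lower female means in 5 of 5 arms and missed the threshold; Hmox1 was past it with DESeq2 (−0.19, adjusted p = 0.0381). Gpx1, Gpx3, Gpx4 and Keap1 lay between 0.02 and 0.03 and were not called, and Gpx6 was at 0.37 ± 0.152 (adjusted p = 0.102, edgeR). In the cortex no member was called by sex, where 2.21% of 17603 genes were called (1.16% higher and 1.05% lower in females). Microglia markers moved the other way in the striatum, with 5 of 10 called higher in females (summed CPM 595 to 842 in females and 539 to 748 in males). Of 8 cortical excitatory neuron markers 1 was called higher in females and none lower, with a median of 0.54 on the log2 scale and a summed CPM of 458 to 1251 in females and 549 to 822 in males. The part of these cells in the sex differences was not tested. The call of Gclm was lost with the L number term (−0.09, adjusted p = 0.0579) and with the adjustment for GC content and length (−0.06, adjusted p = 0.0686).

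**Figure D5:**
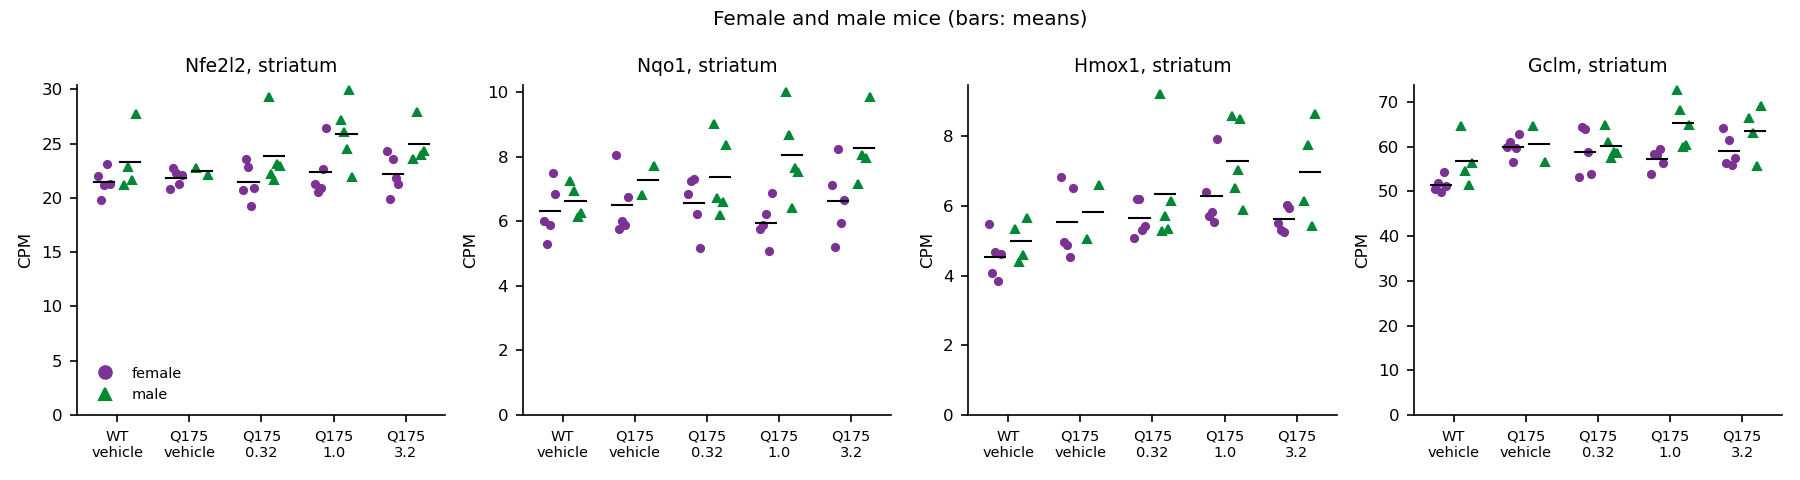
CPM of Nfe2l2, Nqo1, Hmox1 and Gclm in the striatum of each female (circles) and male (triangles) mouse by arm, on linear axes from 0, with bars at the means. The male mean is the higher one in 5 of 5 arms for each of the 4 genes, while single mice of the sexes overlap.

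Beyond the 10 members, genes of the wider antioxidant system moved in both directions with genotype. Of 30 NRF2 target genes, among them Nqo1, Hmox1, Gclc and Gclm, 7 rose and 8 fell in Q175 vehicle striatum, and 7 rose and 6 fell in the cortex, with medians of −0.02 and 0.06 on the log2 scale. These counts stand beside a background of 45.1% of all genes called in the striatum and 30.4% in the cortex, either direction. The smallest p-values in the striatum were those of genes that fell: Cbr3, a carbonyl reductase, from 24.9 ± 2.90 CPM in WT (n = 9) to 13.5 ± 1.37 CPM in Q175 vehicle (n = 7) (−0.89 ± 0.0779, adjusted p = 3.97e-13, edgeR), Ephx1, an epoxide hydrolase, from 38.0 ± 3.73 to 22.5 ± 1.99 CPM (−0.73 ± 0.0907), the ferritin heavy chain gene Fth1 (−0.38 ± 0.0566) and Blvrb, a biliverdin reductase (−0.66 ± 0.102). Of 10 astrocyte markers 7 fell and 2 rose in the striatum, and 6 fell and 1 rose in the cortex. Their summed CPM was 3957 to 5060 in WT and 3484 to 3793 in Q175 vehicle striatum. In the cortex it was 4890 to 5607 in WT and 3707 to 4291 in Q175 vehicle mice. Their part in these changes was not tested. In the cortex Me1, the cytosolic malic enzyme, rose (0.31 ± 0.0473), while Cbr3 (−0.42 ± 0.0672), the glutathione S-transferase gene Gstm1 (−0.42 ± 0.0702) and Ephx1 (−0.33 ± 0.0598) fell.

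Of 15 regulators of NRF2 and its relatives, 3 rose and 4 fell in Q175 vehicle striatum and 3 rose and none fell in the cortex, against the same 45.1% and 30.4% of all genes. Nfe2l3, which encodes the related factor NRF3, went from 7.18 ± 0.986 to 13.3 ± 1.15 CPM in the striatum (0.90 ± 0.0833, adjusted p = 2.09e-12, edgeR) and from 4.37 ± 0.331 to 6.39 ± 0.701 CPM in the cortex (0.57 ± 0.0771, adjusted p = 1.03e-07, edgeR), with no overlap between the genotypes in either tissue. Sqstm1, encoding the autophagy receptor p62, which binds KEAP1, rose by 0.17 in both tissues (SE 0.0318 and 0.0305). Gsk3b, a kinase that marks NRF2 for degradation (−0.37 ± 0.0382), and Nfe2l1, encoding the related factor NRF1 (−0.17 ± 0.0244), fell in the striatum.

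Of 15 genes of glutathione synthesis and recycling 5 rose and 3 fell in the striatum (45.1% of all genes called), and none rose and 1 fell in the cortex (30.4%), where it was Ggct (−0.14 ± 0.039). Glrx, a glutaredoxin (0.44 ± 0.0581), and Glo1, a glyoxalase (0.12 ± 0.0274), rose in the striatum beside Gclm, and Slc1a1, a glutamate and cysteine transporter (−0.16 ± 0.0282), fell. Of 15 peroxiredoxin, thioredoxin, superoxide dismutase and catalase genes 4 rose and 3 fell in the striatum and 4 rose and 1 fell in the cortex. Sod2, the mitochondrial superoxide dismutase, rose in both (0.28 ± 0.0335 and 0.10 ± 0.0252), and Prdx6, which like Gpx4 reduces phospholipid hydroperoxides, fell in both (−0.23 ± 0.0352 and −0.30 ± 0.0423). Txn1, thioredoxin, rose in both as well (0.16 ± 0.0368 and 0.21 ± 0.0487).

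Of 9 genes of the machinery that places selenocysteine in Gpx1, Gpx3 and Gpx4, 2 rose and 2 fell in the striatum and 1 rose and 2 fell in the cortex, beside 45.1% and 30.4% of all genes called. Sephs2, which makes the selenium donor, rose in the striatum (0.20 ± 0.04), Secisbp2, which binds the selenocysteine insertion element, fell in both tissues (−0.13 ± 0.0379 and −0.11 ± 0.0389), and Selenop, encoding the selenium carrier selenoprotein P, fell in both (−0.15 ± 0.0541 and −0.22 ± 0.0564). Of 14 further selenoprotein genes 5 rose and 4 fell in the striatum and 3 rose and 2 fell in the cortex; Selenoo rose in both (0.30 ± 0.0345 and 0.28 ± 0.031), and Selenom fell in the striatum (−0.33 ± 0.0555) and rose in the cortex (0.18 ± 0.0429). With the deposited FPKM values in place of counts, more genes of these lists were higher in Q175 mice, up to 12 of the 30 NRF2 targets in the striatum and 15 in the cortex. Restricting the genotype test to 1 sex or adding the L number left as few as 3 higher in either tissue.

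At 1.0 mg/kg in the cortex, the dose with most calls there, 9 of the 30 NRF2 targets rose and 3 fell (median 0.05, against 0.00 over all genes), and 6 of 15 glutathione genes rose and 1 fell, against 20.7% of all genes called (10.9% higher and 9.8% lower). The 9 became 0 in males only, 5 in a fit of the 2 groups alone and 6 with the adjustment for GC content and length, and the 6 became 0, 3 and 3. Beside Gclm, Prdx1, a peroxiredoxin (0.24 ± 0.0484, adjusted p = 0.000775, edgeR), Fth1 (0.21 ± 0.048) and Gsr, glutathione reductase (0.14 ± 0.0323), rose, and Tkt, transketolase, fell (−0.13 ± 0.0233). Among the regulators 3 rose and 4 fell: Nfe2l2 rose with Cul3 (0.14 ± 0.031) and Rbx1 (0.13 ± 0.0345), which encode the parts of the ligase that KEAP1 recruits, and Bach2, a repressor at the same elements (−0.26 ± 0.0747), fell. At 0.32 mg/kg Nfe2l2, Cul3 (0.14 ± 0.031) and Rbx1 (0.12 ± 0.0346) rose as well, and Keap1 was the 1 regulator that fell. These 2 comparisons share their vehicle mice. Leaving out the mice one at a time, or F1 and F4 together, gave 4 to 10 higher targets at 1.0 mg/kg.

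Within groups, some members varied together and others against each other. After the group means were taken out of the 45 cortex libraries, the highest correlation was that of Hmox1 and Gclm at r = 0.55. Gpx1 and Gpx4 followed at 0.52, Gclc and Gclm at 0.51 and Nfe2l2 and Gclm at 0.51. The lowest there was −0.37 (Gpx6 and Nqo1). In the 45 striatum libraries Nfe2l2 and Hmox1 were highest at 0.64, followed by Gpx4 and Keap1 at 0.63. Gpx1 and Gclm were at −0.62 there, Keap1 and Gclm at −0.61, Gpx4 and Gclc at −0.50 and Gpx1 and Gpx3 at −0.46. Sex was not taken out of these values, and cortical Gpx6, with 0 to 12 counts per library, lay below the filter. These libraries share their normalization and sequencing, so the values are a description.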

How the data were processed

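The 10 genes and the gene lists were chosen with earlier results of these data known. The authors deposited 1 table of estimated counts per gene, which need not be whole (81.5% were whole within 1e-06), and 1 of FPKM values, the units being those the authors named. Read processing named CASAVA 1.8.2, per the submitters' processing notes, and the aligner, quantifier, genome build, annotation and strand setting were not given in the sources used here. Without strand, reads of overlapping genes cannot be told apart.

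Counts were rounded to whole numbers. Ensembl IDs were matched to symbols for 36639 of 38561 IDs, which held 99.68% of the counts, and columns were matched to samples by name. Within each tissue, edgeR 4.0.16 (R 4.3.3) fitted all 45 libraries with terms for arm and sex, after filterByExpr and TMM scaling, and its quasi-likelihood test gave p-values adjusted by Benjamini-Hochberg over all genes tested. The SE is the log2 change divided by the square root of F. The filter kept 17315 genes in the striatum and 17603 in the cortex. Tissue differences were fitted with the mouse as a block, and the genotype by tissue interaction with limma 3.58.1 (voom, mouse as random effect, correlation 0.124). Ratios of Gpx6 to its paralogs used CPM + 0.1 and two-sided exact permutation tests. Gpx6 had 0 to 12 counts per library in the cortex, which limits its precision there.

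The tissues of 1 mouse carry the same label, and their deviations from the group means correlated in 45 of 45 mice (r of 0.111 to 0.622), so they were treated as paired. Genes named beyond the members were the other glutathione peroxidases, up to 4 genes per list with the smallest p in the comparison described, the 5 genes whose mean log2 CPM over the 10 groups was most like that of Gpx6, and cell type markers. No 2 libraries agreed within sampling noise. Labels do not say whether animals of an arm shared cages or litters. Alternatives were DESeq2 1.42.0, limma on log2(FPKM + 0.1) or log2(FPKM + 1), no count filter, a block for the replicate number, terms for the L number in the library descriptions (8 levels, meaning not given), no sex term, single sexes, only the groups compared, each library left out in turn and, added after the data were seen, offsets for GC content and length, the alternatives of the sex difference, and leaving out 2 cortex libraries together.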

Additional observations from a re-analysis of the deposited data

Results flagged for a closer look

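In 11 of 100 groups of a member's values, 1 mouse stood apart from the rest of its group by more than a test for single outlying values allows, and chance gives about 1 in 20. Of Gpx6 in the cortex, where counts are few, the high mice were F2 in Q175 vehicle (0.266 CPM), M3 at 0.32 mg/kg (0.193 CPM) and F4 at 1.0 mg/kg (0.198 CPM). Of Nfe2l2 they were M4 in WT vehicle striatum (27.7 CPM), M1 at 0.32 mg/kg in the striatum (29.3 CPM) and M2 at 3.2 mg/kg in the cortex (20.6 CPM). The same striatum library of M1 at 0.32 mg/kg was also the high one of its group for Hmox1 (9.22 CPM). Gclm was high in WT vehicle striatum M1 (64.7 CPM), and Keap1 was high in cortex M4 at 0.32 mg/kg (73.8 CPM) and low in striatum M2 at 1.0 mg/kg (64.0 CPM). Gpx1 was low in WT vehicle cortex F3 (38.4 CPM).

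The genotype change of Hmox1 differed between striatum and cortex (0.40 on the log2 scale) by limma's test of the interaction given above. For Gpx6 the same fit gave −3.91, and the edgeR fit of all 90 libraries without the mouse as block gave −4.64. Gpx6 passed its filter through WT striatum alone and had 0 to 12 counts per cortex library. The value is thus a description and not a test of a difference between the tissues.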

How the results depend on the processing

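The fall of Gpx6 in Q175 striatum kept its direction and its call under every alternative run, at −5.21 to −4.92 when single mice were left out, and its ratios to Gpx1 (−4.78 to −4.54), Gpx3 (−4.54 to −4.30) and Gpx4 (−4.62 to −4.37) did too, with values of −2.93, −2.71 and −2.76 at a pseudocount of 1. On log2(FPKM + 1) the fall was −2.52, since that pseudocount exceeds the Q175 level. The other members changed by small amounts, and their calls depend on the processing. Over all member values 3235 alternatives gave the same call or stayed uncalled, 117 lost the call, 60 gained one and 6 had the other sign with a call on one side. Another 163, among those 3235, had the other sign with no call on either side. The causes of these changes were not tested.

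The 6 were Keap1 (0.0962 and 0.0915) and Gclc (0.0981 and 0.0943) in the striatum by genotype on the 2 FPKM scales, where the median of all genes was 0.113 higher in Q175, striatal Gpx4 by sex (−0.0608) and cortical Keap1 at 0.32 mg/kg (0.0127) with GC and length offsets. Members called higher by genotype in the striatum (2) numbered 0 with the L number term and in males only, 5 on either FPKM scale, and 1 to 3 when single mice were left out. In the cortex (4) they numbered 2 with the L number term, 1 in females only, 0 in males only and 3 to 4 with single mice left out, and those called lower (0) numbered 1 with the L number term.

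Same-numbered mice of different arms are not shown to be paired: over 166 pairs their deviations correlated at −0.168 to 0.303, with 93 over 0.1. With a replicate block on that number, members called higher numbered 1 in the striatum at 0.32 mg/kg (2 without the block), 0 at 1.0 mg/kg (1), and 1 in the cortex at 0.32 mg/kg (2), and striatal Gpx1 was called by genotype (0.14, adjusted p = 0.0318, edgeR). In the striatum at 0.32 mg/kg the count was also 1 with the L number term and in females only, 0 in males only and with the offsets, and 1 to 3 with single mice left out. At 1.0 mg/kg it was 0 with the L number term, in males only and with the offsets, and 0 to 1 with single mice left out. The striatal dose trend called 1 higher with the offsets (0 without).

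In the cortex at 0.32 mg/kg the count called higher was 0 with the L number term and in males only, 1 in females only (Nqo1), with the offsets (Gpx4, both earlier calls being lost) and on either FPKM scale, and 0 to 3 with single mice left out. The 1 called lower became 0 without a count filter, with the block, the L number term, no sex term, either sex alone or the offsets, and 0 to 1 with single mice left out. At 1.0 mg/kg the 4 became 2 in a fit of the 2 groups alone, 1 in females only, 0 in males only and 1 without F1 and F4. The range was 1 to 4 over the fits that left out single mice or F1 and F4 together. Striatal members lower in females (3) numbered 5 on either FPKM scale and 3 to 5 with single mice left out. Members lower in WT striatum than cortex (1) numbered 2 on the FPKM scale. Those with a higher genotype change in the striatum (1) numbered 0 in the edgeR fit of all 90 libraries with no block for the mouse.

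In the cortex, at few counts, the ratio of Gpx6 to Gpx1 (−0.44) was −0.43 on the FPKM scale and −0.17 with a pseudocount of 1, at −0.66 to −0.36 with single mice left out. That to Gpx4 (−0.42) was −0.15 with a pseudocount of 1 and −0.64 to −0.33, and that to Gpx3 was −0.35 to −0.00017.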
